A study of Mus musculus with 6 samples.

Results

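Cluster 1 is the group of cells that carried the number 1 in the clustering the authors deposited with the data, and its members were taken by that number alone. It held 9064 of the 27258 cells: 3370 cells of the Cblb knockout (657 in library D, 1764 in E and 949 in F) and 5694 wild-type cells (1681 in library A, 1984 in B and 2029 in C). Its working name came from Foxp3, Klf2 and Socs2, and with Phlda1, Myo6 and Ikzf4 these made up the 6 marker genes given for it. All 6 were higher in cluster 1 than in the other cells in each of the 6 libraries, so the label fits the values. The clustering was itself made from such genes, and these differences describe the cluster without testing it.

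The cells were mouse splenic CD4 T cells, isolated as naive cells and held for 48 h in medium with human TGF-beta at 3 ng/ml, IL-4 at 20 ng/ml and an antibody that blocks interferon-gamma at 20 ug/ml. This mixture drives the differentiation of Th9 cells, a helper subset defined by IL-9 secretion. The knockout group (Cblb-/-, 3 libraries) came from mice that lack Cblb, which encodes an E3 ubiquitin ligase, and the wild-type group (3 libraries) from mice that have it. All groups shared the same cytokines and time, and no freshly isolated or untreated cells were among the samples. The labels do not state whether the samples of a genotype came from separate mice or cultures, so every p-value reflects library-to-library spread only, and that spread may be technical.

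As background, FOXP3 is the transcription factor that defines regulatory T cells, which restrain other T cells. Naive CD4 T cells switch Foxp3 on when they meet TGF-beta together with IL-2, whereas IL-4 and TGF-beta together favour Il9. KLF2 is a transcription factor of resting T cells that keeps up genes for circulation through lymph nodes, such as S1pr1. SOCS2 is a feedback inhibitor that cytokines induce through STAT5. CBL-B restrains signalling from the T cell receptor, above all when costimulation is weak.

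Levels are given in ppm, the share of all depth-corrected counts of a cluster within a library, scaled by 1e+06, after summing over cells. Median raw depth in cluster 1 was 37430 (D), 34474 (E) and 36922 (F) UMIs per cell in knockout libraries and 36996 (A), 37857.5 (B) and 36501 (C) in wild-type libraries. A UMI is a unique molecular identifier, 1 for each captured transcript. The other cells of the same libraries had medians of 36043.5 to 40238 UMIs, and mitochondrial genes took a median of 4.45% to 4.96% of the UMIs of cluster 1 cells. On the first principal component of cluster 1, which held 67.8% of the variance, knockout library E (8.06) lay apart from D (14.65) and F (11.59), with wild-type libraries at -10.81, -11.15 and -12.34. Of all cell barcodes 76 occurred in more than 1 library, and 49 cluster 1 cells carried such a barcode, 9 of the barcodes being in cluster 1 of more than 1 library.

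Cluster 1 cells were T cells by their markers. Cd3d, Cd3e, Cd3g, Cd4, Trac and Trbc1 all had over 5 ppm, and their sum was 1502 to 1662 ppm in knockout and 1487 to 1548 ppm in wild-type libraries. Markers of mast cells or basophils (Cpa3, Fcer1a, Kit, Mcpt8 and Ms4a2) were under 1 ppm in every library, and so were Cd79a and Ms4a1 (but not Ighm) of B cells, Cd8a of CD8 T cells, and Csf1r and Itgam of myeloid cells. Summed over each list, B cell markers reached 26.8 to 33.2 ppm in knockout and 25.3 to 29.2 ppm in wild-type libraries, of which Ighm, the IgM heavy chain, made up 20.8 to 24.5 against 22.5 to 25.4 ppm. CD8 markers reached 8.69 to 11.8 ppm in knockout and 5.42 to 6.48 ppm in wild-type libraries, and myeloid markers 99.2 to 111 against 81.1 to 83.3 ppm, nearly all of it Cst3. The 3 measured NK cell markers summed to 1.33 to 2.44 ppm in knockout and 0.371 to 0.571 ppm in wild-type libraries, mostly Eomes. Their part in the genotype differences was not tested.

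The promoter windows of Foxp3 and Klf2, the genes with the largest excess in cluster 1, are shown with matches to the palindrome TTCNNNGAA. Some STAT factors, STAT5 among them, bind this form. Forms with another spacing were not searched. RefSeq gives windows of 250 bases before to 50 bases after a start site on build GRCm38.p6, each written on the plus strand, 5′ to 3′, with a match in capitals. Foxp3 has 2 windows: chrX:7579426-7579725 has no match, and chrX:7580233-7580532, the one printed, has 1 match, which begins 139 bases before the start. The Klf2 window is chr8:72318812-72319111 and has none.
Foxp3: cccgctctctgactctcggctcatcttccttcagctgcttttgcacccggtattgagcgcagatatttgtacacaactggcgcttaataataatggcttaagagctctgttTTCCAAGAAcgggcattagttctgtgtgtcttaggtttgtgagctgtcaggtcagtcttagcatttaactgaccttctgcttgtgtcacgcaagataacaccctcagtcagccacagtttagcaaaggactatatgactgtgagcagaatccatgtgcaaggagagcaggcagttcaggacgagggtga
Klf2: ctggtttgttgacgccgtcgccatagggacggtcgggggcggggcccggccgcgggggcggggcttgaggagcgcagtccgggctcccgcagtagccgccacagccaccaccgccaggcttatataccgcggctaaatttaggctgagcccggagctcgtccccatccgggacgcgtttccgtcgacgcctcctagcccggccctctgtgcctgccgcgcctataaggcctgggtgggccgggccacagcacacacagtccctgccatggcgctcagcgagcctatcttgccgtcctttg
The motif reads the same on both strands. Of the 15 genes that led cluster 1, 8 had a window, and Foxp3, Pkib and Sgk1 had a match in at least 1 of theirs (3 of the 15 windows of these genes). Among all 27025 genes with RefSeq windows, 9.55% had a match in a window, and 8.30% of 32851 windows held one. A match describes the sequence and does not show that a factor binds there.

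Foxp3 (ENSMUSG00000039521, chromosome X, 7573644 to 7595245, plus strand, GENCODE M21 on mm10) had 14.3, 17.7 and 14.6 ppm in cluster 1 of knockout libraries D, E and F, and 25.4, 22.3 and 23.6 ppm in wild-type libraries A, B and C. Averaged over the 6 libraries it had 19.6 ppm in cluster 1 against 5.72 ppm in clusters 0 and 2 to 5 pooled, a mean within-library log2 difference of 1.67 ± 0.21 (SD, n = 6). By cluster its mean level ran from 19.6 ppm in cluster 1 through 14.98 in cluster 5, 11.99 in cluster 2, 5.40 in cluster 3 and 3.25 in cluster 0 to 2.13 ppm in cluster 4. The ranges over libraries overlapped between all neighbours in that order, clusters 1 and 5 included. The genotype order was alike in both leading clusters, with 10.1 ± 3.86 ppm in knockout and 19.8 ± 2.29 ppm in wild-type libraries (SD, n = 3 each) in cluster 5.

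Klf2 (ENSMUSG00000055148, chromosome 8, 72319033 to 72321656, plus strand) had 10.4, 18.6 and 10.1 ppm in knockout libraries D, E and F and 25.4, 26.2 and 21.7 ppm in wild-type libraries. Knockout library E was the highest of its genotype and still below every wild-type library. The mean was 18.7 ppm in cluster 1 and 6.36 ppm in the other cells (log2 difference 1.47 ± 0.26, SD, n = 6), followed by 12.1 ppm in cluster 5, 6.50 in cluster 0, 4.80 in cluster 2, 4.001 ppm in cluster 3 and 3.45 in cluster 4. Other resting-cell genes were closer to level. Lef1 and Tcf7, transcription factors of naive T cells, exceeded the other cells by 0.19 and 0.21 on the log2 scale, and Il7r, the IL-7 receptor, stood at -0.28.

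Socs2 had 167, 187 and 157 ppm in knockout libraries D, E and F and 186, 168 and 168 ppm in wild-type libraries, so the genotypes overlapped. Cluster 1 averaged 172 ppm and the other cells 72.5 ppm, but cluster 2 stood higher, at 206 ppm. Ikzf4, which encodes the Ikaros family factor EOS that works with FOXP3, showed the same order, with 64.8 ppm in cluster 2, 60.5 in cluster 1 and 50.03 in cluster 5. Phlda1, a pleckstrin-domain protein induced on activation, averaged 113 ppm in cluster 1 and 107 ppm in cluster 2. In wild-type libraries alone it averaged 130 ppm in cluster 1 and 139 ppm in cluster 2. Myo6, the minus-end directed myosin, averaged 17.5 ppm in cluster 1 and 16.2 ppm in cluster 5. In wild-type libraries alone the order was reversed, with 18.7 ppm in cluster 1 and 20.7 ppm in cluster 5.

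**Figure D1:**
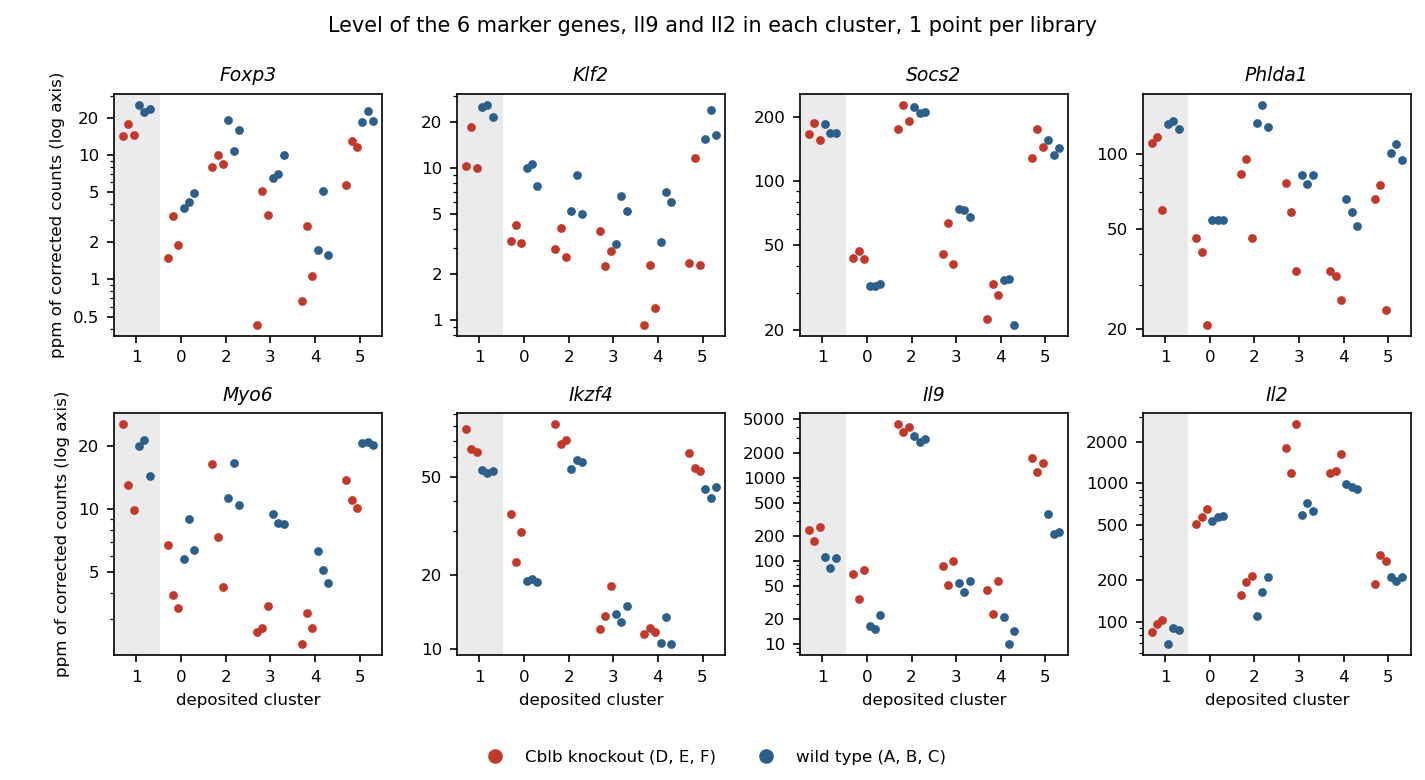
Each panel plots 1 gene on a log axis in ppm of corrected counts, by deposited cluster with cluster 1 at the left on grey, and each point is 1 library (knockout left of wild type within a cluster). By their means over libraries Foxp3 and Klf2 were highest in cluster 1, Socs2 and Ikzf4 in cluster 2, and Il2 was lowest in cluster 1, where Il9 lay between the 3455 ppm of cluster 2 and the 28.5 ppm of cluster 4.

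Of 8542 genes with at least 5 ppm, 1632 (19.1%) were higher in cluster 1 than in the other cells in all 6 libraries and 2065 (24.2%) lower. Few differences were large: 8 genes were higher and 48 lower by at least 2-fold on average. Of the 15 genes with the highest excess, 14 are named here: Foxp3, Klf2, Gsta4, Socs2, Myo6, Tead1, Sgk1, Ikzf4, Phlda1, Pkib, Gpr83, Fcmr, Treml2 and Rragd, with mean log2 differences of 1.67 down to 0.90. Among them are Gpr83, a G protein-coupled receptor of regulatory T cells, Sgk1, a kinase downstream of PI3K, Tead1, a partner of the YAP and TAZ coactivators, and Rragd, a GTPase that couples amino acids to mTORC1. By means over all libraries, cluster 2 held the highest level of 8 of the 15, cluster 1 of 6 and cluster 5 of 1. Cluster 4 held the lowest level of 14. Phlda1 and Myo6 counted for cluster 1 there, but in wild-type libraries alone their means were higher in clusters 2 and 5.

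Of the 10 genes at the other end, Il2, the T cell growth factor, had 84.5, 96.3 and 103 ppm in cluster 1 of knockout libraries and 69.0, 90.4 and 86.9 ppm in that of wild-type libraries. Averaged over libraries it had 88.4 ppm in cluster 1 against 556 ppm in the other cells (log2 difference -2.64 ± 0.10, SD, n = 6), the lowest of all clusters. The chemokine Ccl20 averaged 5.31 against 66.3 ppm, Ccl3 3.32 against 24.7 ppm and Ccl4 29.7 against 136 ppm. Each of these chemokines had its highest level in 1 other cluster, Ccl20 in cluster 4 (767 ppm) and Ccl4 and Ccl3 in cluster 3 (1031 and 271 ppm). Il9 (ENSMUSG00000021538, chromosome 13, 56479277 to 56482246, minus strand) averaged 162 ppm in cluster 1 against 592 ppm in the other cells. By cluster, this level was below clusters 2 (3455 ppm) and 5 (868 ppm) only. It was above clusters 3 (65.5 ppm), 0 (39.3 ppm) and 4 (28.5 ppm). Akr1c18, an aldo-keto reductase, was low in cluster 1 (4.31 ppm) as in every cluster except cluster 5 (624 ppm), and Kcnk10, Cib2, Cd5l and Csf1 completed the 10 lowest.

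**Figure D2:**
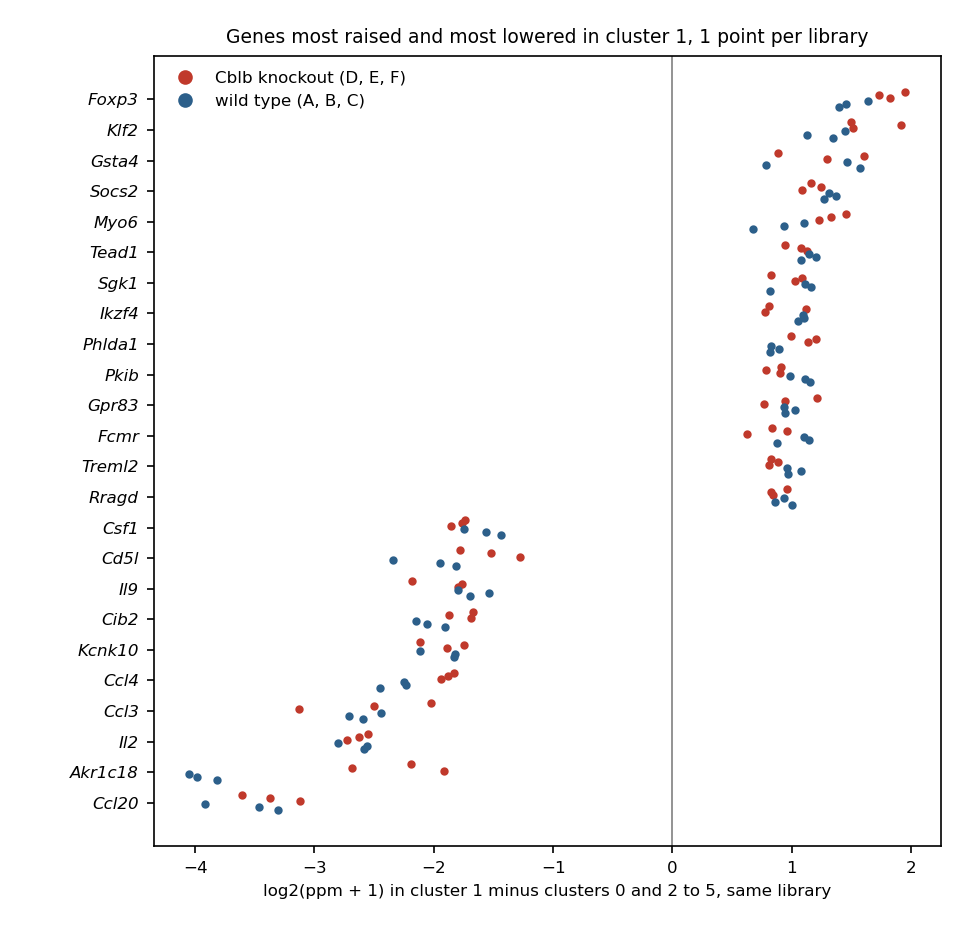
The horizontal axis is the difference in log2(ppm + 1) between cluster 1 and clusters 0 and 2 to 5 of the same library, for 14 of the 15 genes with the highest and the 10 with the lowest mean, and each point is 1 library (knockout above wild type). The choice required 1 sign in all 6 libraries, so all points of a gene lie on 1 side of 0, from Foxp3 at a mean of 1.67 to Ccl20 at -3.47.

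Counts of list members in this paragraph and the next are read beside the shares over all genes, 19.1% higher and 24.2% lower in all 6 libraries. Of 14 measured regulatory T cell genes 7 were higher in all 6 libraries (Foxp3, Ikzf4, Gpr83, Izumo1r, Il2ra, Nrp1 and Ikzf2) and 4 were lower (Ebi3, Ctla4, Tnfrsf4 and Nt5e), and the median log2 difference was 0.27 against -0.01 over all genes. Il2ra, the high-affinity chain of the IL-2 receptor, averaged 443 ppm in cluster 1, below cluster 2 (527 ppm). The list of STAT5 and STAT6 feedback genes had 10 of 22 higher and 3 lower. Of the secreted cytokine genes 13 of 21 were lower and 2 higher (Ltb and Il16, a lymphotoxin and a chemoattractant). Of the inhibitory receptor list, which also holds the non-receptor genes Tox and Nt5e, 10 of 12 were lower and 0 higher. Among the lower ones was Pdcd1 (-0.77), which encodes PD-1.

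No member of the hypoxia and glycolysis list was higher and 16 of 28 were lower, with Slc16a3, the lactate exporter, at -0.67 and Slc2a3, a glucose transporter, at -0.51. The amino acid supply genes that ATF4 induces ran the other way, 18 of 23 higher and 1 lower, at a median of 0.11. Of the G2 and mitosis genes 25 of 44 were higher and 1 lower, led by Cenpf (0.30), a kinetochore protein, and 13 of 16 histone genes were higher and 0 lower. Of 46 S phase genes 9 were higher and 10 lower, near the shares over all genes. Histone genes form a family of near-identical copies, and the counting may have divided reads among them.

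Against single clusters the borders of cluster 1 differed. In comparison with cluster 2, 7 genes were higher and 24 lower in all libraries by at least 2-fold. Klf2 (1.76), Xcl1 (1.39), Nkg7 (1.33) and Gsta4 (1.27) headed the higher ones. Il9 was far lower, 162 against 3455 ppm (-4.51), and Il13 (-2.74), Il4 (-1.80) and Il1a (-1.78), cytokines of type 2 cells or inflammation, followed it. Foxp3 and Socs2 were closer, at 19.6 against 11.99 ppm and 172 against 206 ppm.

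In comparison with cluster 0, the largest cluster with 11485 cells, 27 genes were higher and 45 lower by that rule. Foxp3 (2.31), Il9 (2.17), Socs2 (2.15), Sgk1 (2.07) and Tead1 (1.88) were the highest, followed by Fcmr (1.81) and Batf3 (1.61), a partner of JUN proteins. Il2 (-2.69), Kcnk10 (-2.12) and the paired membrane protein genes Tmem176a (-1.95) and Tmem176b (-1.94) were the lowest. Clusters 3 and 4 were not compared in this way. In comparison with cluster 5, there were 0 genes higher and 11 lower by at least 2-fold. The aldo-keto reductases Akr1c18 (-6.89), Akr1c12 (-2.78) and Akr1c13 (-2.16) made up much of that difference, with Ccl20 (-2.32) and Il9 (-2.04). These 3 reductase genes are close relatives, and reads may have been divided among them.

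For Foxp3, detection in single cells followed the summed levels. A corrected Foxp3 count of at least 1 was found in 20.4%, 25.8% and 23.8% of cluster 1 cells in knockout libraries D, E and F, and in 34.7%, 34.6% and 33.8% in wild-type libraries. The knockout mean of 23.3% ± 2.73 lay below the wild-type mean of 34.4% ± 0.497 (SD, n = 3 each; exact two-sided permutation test p = 0.1, the smallest that 3 against 3 libraries allow). No cell type known to lack Foxp3 was identified to set the background. In cluster 6 (24 cells) 0 of 18 knockout and 0 of 6 wild-type cells had a count, which allows shares of up to 16.7% and 50%. Median depth was 24759 and 27389 UMIs there, against 35745.5 and 37090.5 in cluster 1. Cluster 4, which was deeper (41693 and 41732), had Foxp3 counts in 4.49% and 7.84% of cells. Shares are therefore read as cells with a count, not as cells that express the gene. Klf2, Phlda1, Ikzf4 and Il9 also had the same genotype order in shares and sums. Socs2 and Myo6 did not, since their sums overlapped between genotypes and their shares did not. Mean shares were 88.8% in knockout and 85.2% in wild-type libraries for Socs2, and 15.7% and 22.0% for Myo6.

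Cells with Foxp3 counts were not confined to the cluster. Of all such cells 44.5%, 54.8% and 43.9% lay in cluster 1 in knockout libraries D, E and F, and 64.7%, 66.1% and 62.5% in wild-type libraries. At least 4 of the 6 marker genes were detected in 33.5%, 33.2% and 26.6% of cluster 1 cells in knockout libraries and in 44.6%, 44.6% and 40.8% in wild-type libraries. In the other cells of the same libraries that share was 6.22% to 10.5% in knockout and 16.8% to 17.6% in wild-type libraries. Most cluster 1 cells thus carried only part of the marker set.

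Within cluster 1, the cells with a Foxp3 count were set against those at 0 in the same library, as a description. Gpr83 (1.13), Gsta4 (1.11), Sgk1 (0.94), Tead1 (0.82), Socs2 (0.66), Klf2 (0.60) and Ikzf4 (0.46) were higher with Foxp3 in 6 of 6 libraries, in mean log2 differences. Myh10 (-1.10), a nonmuscle myosin, Penk (-1.04), the enkephalin precursor, Il13 (-1.01), Csf2, Ebi3 (-0.71) and Il2 (-0.57) were lower in 6 of 6. For Csf2 the differences in wild-type libraries A, B and C were only -0.21, -0.11 and -0.11, at levels under 1 ppm in cluster 1. Il13 averaged 0.935 ppm in wild-type cluster 1. Il9 was level, with a mean of 0.02 and 4 of 6 libraries higher. A corrected Il9 count of at least 10 was found in 31.3%, 22.4% and 31.0% of Foxp3-positive cells and 29.6%, 21.9% and 34.2% of the others in knockout libraries D, E and F. In wild-type libraries it was found in 15.8%, 10.6% and 14.6% of Foxp3-positive cells and 15.8%, 10.5% and 13.3% of the others. Median depth of Foxp3-positive cells was 35045, 33070 and 35061.5 UMIs in libraries D, E and F, against 38133, 34925 and 37739 in the others. In A, B and C it was 36543.5, 38033 and 37072.5 against 37426, 37760.5 and 36094. The part of depth in these differences was not tested.

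The comparison of genotypes inside cluster 1 asked what the loss of Cblb changed among cells the clustering had placed together. Cblb itself (ENSMUSG00000022637, chromosome 16, 52031225 to 52208048, plus strand) had 14.4, 13.1 and 14.6 ppm in knockout and 30.3, 27.6 and 27.9 ppm in wild-type libraries, which gives -0.98 on the log2 scale (SE 0.06, adjusted p = 8.8e-05 by limma). The order fits the labels, although reads remained in the knockout, and whether the counted part lies outside the deleted part is not given in the sources used here. Of 8385 genes tested, 773 (9.22%) rose in knockout cells and 807 (9.62%) fell, 18.8% in all, at an adjusted p of 0.05 (limma with Benjamini-Hochberg adjustment over all genes). At least 2-fold changes were 49 rises and 15 falls. Values of the genotypes did not overlap for 3318 genes (39.6%). Leaving out 1 wild-type library reduced the number of changed genes to 682 (without A), 782 (without B) or 668 (without C).

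Of the 6 markers 2 fell, 1 rose and 3 did not pass the test, with Foxp3 at a log2 difference of -0.59 (SE 0.09, adjusted p = 0.0030) and Klf2 at -0.91 (SE 0.20, adjusted p = 0.014; limma). The Klf2 call was lost without wild-type library A (adjusted p = 0.059) or B (adjusted p = 0.0503). Ikzf4 rose by 0.37 (SE 0.08, adjusted p = 0.012), with 77.8, 64.4 and 63.2 ppm in knockout and 53.2, 51.5 and 52.9 ppm in wild-type libraries. Socs2 differed by -0.04 (SE 0.07, adjusted p = 0.76).

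Phlda1 had 110, 116 and 59.8 ppm in knockout libraries D, E and F and 131, 135 and 125 ppm in wild-type libraries (log2 difference -0.51, adjusted p = 0.12, limma). It passed the test without knockout library E (-0.68, adjusted p = 0.045) and without F (-0.20, adjusted p = 0.034). Myo6 had 25.6, 13.0 and 9.96 ppm in knockout and 20.2, 21.5 and 14.5 ppm in wild-type libraries, which overlapped (adjusted p = 0.52), and it passed only without knockout library D (-0.65, adjusted p = 0.043). Among the other leading genes Tead1 fell, with 3.88, 6.37 and 4.83 ppm in knockout and 10.7, 9.86 and 9.41 ppm in wild-type libraries (log2 difference -0.89, adjusted p = 0.0037).

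Il9 rose by 1.13 on the log2 scale (SE 0.16, adjusted p = 0.0023, limma), a 2.19-fold difference. It had 237, 173 and 258 ppm in cluster 1 of knockout libraries D, E and F and 112, 81.6 and 109 ppm in wild-type libraries. Library E was the lowest knockout library and above every wild-type library. A corrected Il9 count of at least 10 was found in 30.0%, 22.1% and 33.4% of knockout cells, against 15.8%, 10.5% and 13.8% of wild-type cells. Il2 did not pass the test (0.21, SE 0.11, adjusted p = 0.20).

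The 12 largest rises among genes with a name included the cytokine and chemokine genes Ccl22, Csf2, Il13 and Il1a. Ccl22, a chemokine that draws CCR4-bearing T cells, had 11.3, 8.18 and 12.6 ppm in knockout and 0.219, 0.557 and 0.0649 ppm in wild-type libraries (log2 difference 3.19, adjusted p = 3.9e-05). Csf2, which encodes GM-CSF, had 21.1, 8.08 and 6.46 against 0.752, 0.252 and 0.0909 ppm (3.10, adjusted p = 0.0011). In wild-type cluster 1 both were under 1 ppm, and their differences depend on the pseudocount, being 5.03 and 4.76 with 0.1 ppm and 1.003 and 1.02 with 10 ppm in place of 1.

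Il13, a type 2 cytokine, had 18.5, 4.11 and 14.4 ppm in knockout and 0.955, 1.01 and 0.844 ppm in wild-type libraries (log2 difference 2.58, adjusted p = 0.0041, limma). Library E was again lowest among the knockouts. Wild-type values of Il13 also lay near the pseudocount of 1 ppm. Il1a, an inflammatory cytokine, rose by 2.07 and Il1rn, the antagonist of its receptor, by 1.64. Gatm, the first enzyme of creatine synthesis, rose by 2.40, Ntrk3, a neurotrophin receptor, by 2.13 and Cacnb3, a calcium channel subunit, by 1.79. Casz1 (1.78), Tnip3 (1.69), Klhl3 (1.63) and Ece1 (1.60) completed the 12 largest rises among genes with a name. Of the 12, Ccl22, Csf2, Il13, Il1a, Casz1, Tnip3, Il1rn and Klhl3 averaged under 5 ppm in wild-type cells. They passed the filter of 5 ppm on the mean only through knockout cells, so their rank is not read as a result.

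Among genes with a name the falls were smaller than the largest rises. Trmo, a tRNA methyltransferase, had 1.68, 1.26 and 1.22 ppm in knockout and 8.96, 9.17 and 8.98 ppm in wild-type libraries (log2 difference -2.08, adjusted p = 2.6e-05, limma). Nt5e, which encodes CD73, the ectoenzyme that makes adenosine and is found on regulatory T cells, had 8.17, 18.8 and 12.7 against 29.5, 28.3 and 29.7 ppm (-1.16, adjusted p = 0.0091). Tox, a transcription factor of T cell development and exhaustion, had 5.16, 6.80 and 4.33 against 12.8, 13.6 and 11.6 ppm (-1.10, adjusted p = 0.0012). Genes among the 12 largest rises and falls were chosen for groups that do not overlap.

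Igfbp7 (-1.32), Trib2 (-1.28), Pdlim5 (-1.20), Hist1h2bj (-1.16), Fhl2 (-1.14), Hspbap1 (-1.12), Hist1h1a (-1.12), St8sia4 (-1.02) and Cblb completed the 12 largest falls among genes with a name. Unnamed loci are outside that rule, and 2 of them, picked out after their values were seen, moved further: Gm42031 by -5.87 (adjusted p = 2.3e-09, limma) and Gm10093 by 4.11 (adjusted p = 3.0e-05). Hspbap1 lies on chromosome 16 (35770375 to 35828477), the chromosome of Cblb. It had 5.97, 7.49 and 7.93 ppm in knockout and 16.1, 16.9 and 16.9 ppm in wild-type libraries. Among the 12 largest falls, Trmo, Fhl2 and St8sia4 averaged under 5 ppm in knockout cells. They passed the filter of 5 ppm on the mean only through wild-type cells.

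**Figure D3:**
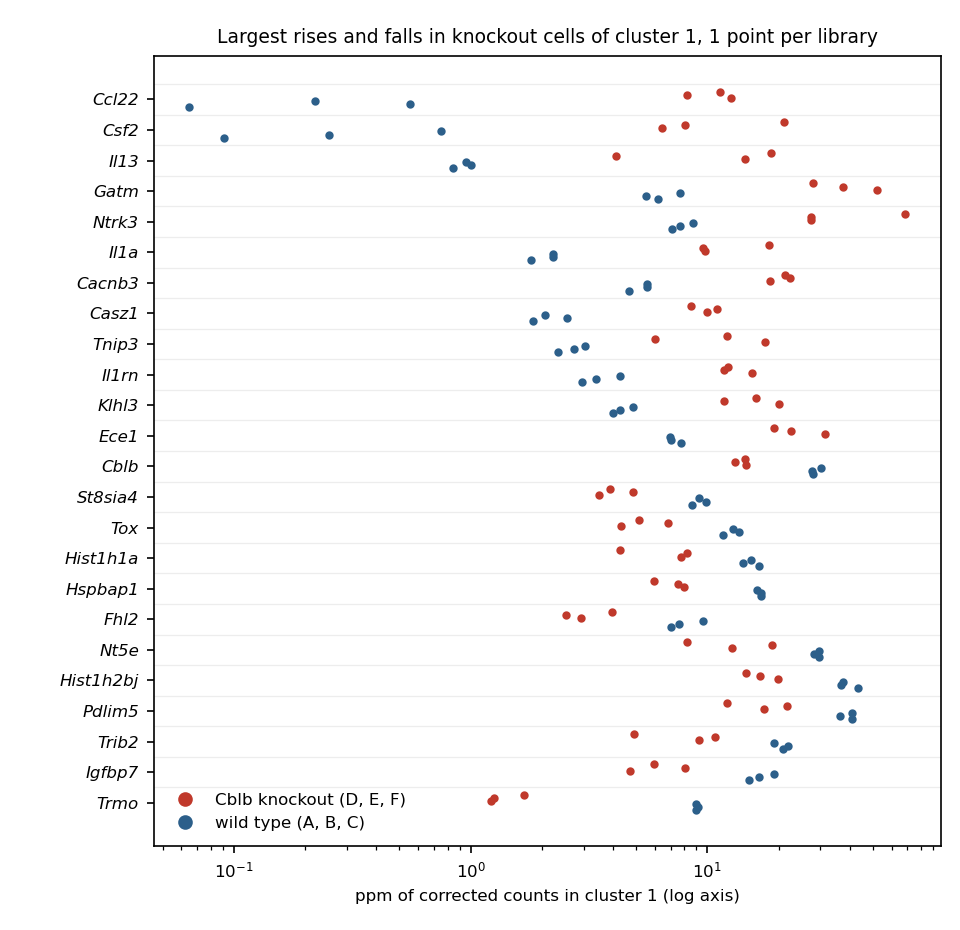
The 12 largest rises and 12 largest falls of genes with a name in knockout cells of cluster 1 are plotted in ppm of corrected counts on a log axis, with 1 point per library (knockout above wild type). The genes were chosen for genotypes that do not overlap, and the wild-type points of Ccl22 and Csf2 lie under 1 ppm. Ccl22, Csf2, Il13, Il1a, Casz1, Tnip3, Il1rn and Klhl3 passed the filter of 5 ppm on the mean only through knockout cells. Trmo, Fhl2 and St8sia4 passed it only through wild-type cells.

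Counts of list members from here on are read beside the shares over all 8385 genes tested, 9.22% higher and 9.62% lower in knockout cells. Regulatory T cell genes moved in both directions. Of 14 tested 7 rose (Il2ra, Ikzf4, Ctla4, Tnfrsf18, Tnfrsf4, Tnfrsf9 and Ebi3), 3 fell (Foxp3, Capg and Nt5e) and 4 did not pass, with a median log2 difference of 0.33 against -0.01 over all genes tested. Ebi3, a subunit of IL-27 and IL-35, had 31.1, 39.4 and 24.9 ppm in knockout and 13.4, 14.9 and 11.2 ppm in wild-type libraries (1.20, SE 0.15, adjusted p = 0.0017, limma). Il12a, which encodes the other subunit of IL-35 and a subunit of IL-12 and was chosen after its values were seen, had 119, 125 and 85.6 against 45.6, 49.4 and 29.9 ppm (1.39, SE 0.19, adjusted p = 0.0022). Tnfrsf4, the costimulatory receptor OX40, had 947, 710 and 835 against 568, 536 and 541 ppm (0.59, adjusted p = 0.0035). For each of these genes the lowest knockout library exceeded the highest wild-type library.

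By list, Th9 and Th2 genes rose more often than they fell, Th1 and Th17 genes were split, and no follicular helper gene rose. Of the Th9 genes 10 of 19 rose and 3 fell. Of these rises 2 (Ccl20 and Ccl22) averaged under 5 ppm in wild-type cells and passed the 5 ppm filter only through knockout cells. Batf3 had 122, 111 and 126 ppm in knockout and 74.7, 48.2 and 53.3 ppm in wild-type libraries (log2 difference 1.04, adjusted p = 0.0019, limma), and Gata3, the type 2 master regulator, had 212, 155 and 153 against 120, 113 and 110 ppm (0.58, adjusted p = 0.0098). Of the Th2 genes 4 of 6 rose and 0 fell, and of the rises Il13 passed that filter only through knockout cells. Of the Th1 genes 3 of 6 rose, among them Stat4 (0.81), and 2 fell. Of the Th17 genes 2 of 5 rose, Rora (0.83) and Stat3 (0.60), and 1 fell. The follicular helper list had 3 falls of 4, in Tox, Icos (-0.54) and Pdcd1 (-0.43).

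Among the secreted cytokines, 10 of the 17 with a test rose, and Ccl4 alone fell (-0.71). Of the 10 rises 6 (Ccl20, Ccl22, Csf2, Il13, Il1a and Penk) had a mean under 5 ppm in wild-type cells and passed the filter on the mean through knockout cells, so the count is not read as a share of the list. Of the TNF family 9 of 17 rose and 0 fell. Tnfsf8, which encodes the CD30 ligand, had 88.9, 82.2 and 51.0 ppm in knockout and 28.2, 42.6 and 30.9 ppm in wild-type libraries (log2 difference 1.09, adjusted p = 0.0089, limma). Tnf itself had 39.4, 25.4 and 34.1 against 18.9, 17.7 and 20.3 ppm (0.75, adjusted p = 0.0075). Ccl20, though among the genes lowest in cluster 1, rose by 0.996 (adjusted p = 0.010, limma) and lost the call without wild-type library A (adjusted p = 0.051).

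NF-kB pathway genes rose in 12 of 21 cases and fell in 0. Traf1, an adaptor of TNF receptors, had 82.0, 90.8 and 89.6 ppm in knockout and 46.9, 48.6 and 47.4 ppm in wild-type libraries (log2 difference 0.86, adjusted p = 5.3e-05, limma). Nfkbia, the inhibitor that NF-kB itself induces, had 592, 646 and 570 against 368, 385 and 365 ppm (0.69, adjusted p = 0.00019). Of the immediate early genes 11 of 27 rose and 0 fell, with Nr4a2 (1.46), Ier3 (1.33) and Fosl2 (1.23) the highest. Of these rises 2 (Dusp1 and Fosl2) passed the filter on the mean only through knockout cells. Egr1 and Egr3, which T cell receptor signals induce, did not pass (0.08 each). Of 38 genes close to the T cell receptor 1 rose and 7 fell, Cblb and the kinase Txk (-0.63) among the falls. Txk passed the filter only through wild-type cells, and Cblb is the gene knocked out.

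STAT5 and STAT6 feedback genes rose in 10 of 20 cases and fell in 0. Socs1, a feedback inhibitor of IL-4 and interferon signals, had 188, 141 and 167 ppm in knockout and 100, 94.7 and 110 ppm in wild-type libraries (log2 difference 0.69, adjusted p = 0.0024, limma). The TGF-beta response list was split, 3 up and 3 down of 20, with Pmepa1, a feedback inhibitor of SMAD signalling, at 0.82 and the receptor gene Tgfbr1 at -0.48. Of the naive and quiescence genes 6 of 22 rose and 3 fell, and of the rises Il7r passed the filter only through knockout cells. Satb1, a chromatin organiser, was the largest rise, with 264, 173 and 269 against 111, 110 and 114 ppm (1.04, adjusted p = 0.0023).

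Receptors on the surface were mixed. Of the costimulation and activation genes 6 of 19 rose and 4 fell. Cd69, an early activation marker, fell by 0.66 and Icos, a costimulatory receptor, by 0.54. The inhibitory receptor list, which also holds Tox, a transcription factor, and Nt5e, an ectoenzyme, gave 4 rises and 4 falls of 12. Lag3 (0.60) and Ctla4 (0.56) rose, and Tox, Nt5e and Pdcd1 fell. Of the homing and chemokine receptors 6 of 13 rose and 2 fell, and Gpr183, a receptor for oxysterols, had the largest rise (0.75). The 4 cytotoxic genes tested gave 3 rises and 1 fall, with Nkg7 at 0.44 and Ctsw at -0.56.

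The interferon response list had 11 rises and 2 falls of 19. Of these Zbp1 (a rise) passed the filter on the mean only through knockout cells and Apol9b (a fall) only through wild-type cells. Zbp1, a sensor of nucleic acids, had 10.2, 5.53 and 8.10 ppm in knockout and 2.74, 2.57 and 2.31 ppm in wild-type libraries (log2 difference 1.31, adjusted p = 0.0020, limma). H2-Q7, a nonclassical MHC class I gene with close copies, had 154, 104 and 137 against 54.0, 56.4 and 55.7 ppm (1.21), and its copies could share reads. Of the apoptosis genes 6 of 20 rose and 1 fell, with the survival genes Bcl2l1 (0.49) and Cflar (0.47) among the rises. Of 17 p53 targets 1 rose, the cell cycle inhibitor Cdkn1a (0.88), and 3 fell, of which Trp53inp1 passed the filter only through wild-type cells. Of 11 ubiquitin ligase genes of T cell tolerance 1 rose, Nedd4 (0.76), and 1 fell, Cblb, the gene knocked out. These counts are near the shares over all genes (9.22% and 9.62%).

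Histone genes fell in 13 of 16 cases with 0 rises, at a median log2 difference of -0.49. Of these falls Hist1h2ab passed the filter only through wild-type cells, and the near-identical copies may share reads. Hist1h2bj had 14.6, 16.7 and 19.9 ppm in knockout and 37.4, 36.8 and 43.3 ppm in wild-type libraries (-1.16, adjusted p = 0.00046, limma). The rest of the cell cycle moved little, with 1 rise and 5 falls among 46 S phase genes and 4 rises and 1 fall among 44 G2 and mitosis genes. Chaperones of the unfolded protein response fell in 10 of 19 cases and rose in 1. Pdia3, a disulfide isomerase, had 110, 121 and 142 against 193, 183 and 198 ppm (-0.62, adjusted p = 0.0020).

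The ATF4 and amino acid supply genes rose in 10 of 23 cases and fell in 0. Asns, asparagine synthetase, had 206, 167 and 136 ppm in knockout and 103, 91.0 and 58.1 ppm in wild-type libraries (log2 difference 1.03, adjusted p = 0.010, limma). Hypoxia and glycolysis genes rose in 5 of 27 cases and fell in 0, with Hk2, hexokinase 2, at 0.65. Respiratory chain genes fell in 18 of 54 cases and rose in 1, all by less than 0.35 on the log2 scale. MYC and ribosome biogenesis genes fell in 8 of 32 cases and rose in 0, with Nme1 lowest at -0.38. Of the actin and myosin genes 7 of 23 fell, with Capg, an actin-capping protein, at -0.56, and 2 rose.

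**Figure D4:**
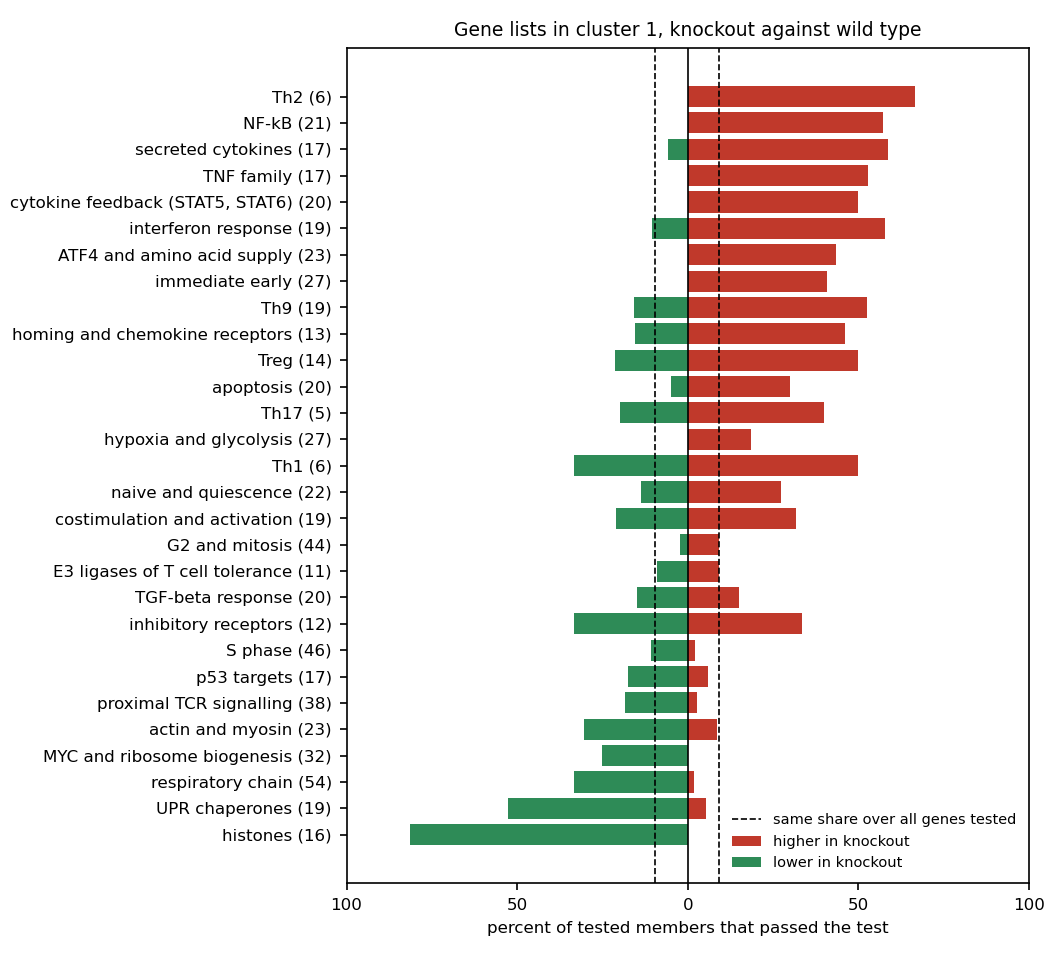
Bars give the percent of each list's tested members (number in brackets) that rose to the right or fell to the left in knockout cells of cluster 1, and dashed lines give the same shares over all 8385 genes, 9.22% and 9.62%. Lists with under 5 tested members are not drawn. NF-kB genes rose in 12 of 21 cases and histones fell in 13 of 16. The secreted cytokine bar (10 of 17) holds 6 members that passed the filter only through knockout cells, and each other list drawn holds 0 to 2 called members that passed through 1 genotype.

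Clusters 0 and 2 to 5 of the same libraries gave 877 rises (10.3%) and 1148 falls (13.5%) of 8491 genes tested (23.8%). These values share their libraries with those of cluster 1. Of 8334 genes tested in both, 1310 were called in both in the same direction and 0 in opposite directions. Ccl22, for example, differed by 3.19 in cluster 1 and 3.23 in the other cells. Gatm differed by 2.40 and 2.69, and Trmo by -2.08 and -1.90. A genotype difference given for cluster 1 is thus not read as particular to it. Whether the genotype difference itself differed was tested on the 6 within-library differences between cluster 1 and the other cells. Of 8385 genes 261 (3.11%) passed, 162 (1.93%) with a higher and 99 (1.18%) with a lower knockout effect in cluster 1 (limma, adjusted p of 0.05). With TMM scaling in place of ppm the split was 111 higher and 176 lower, and without a trend in the prior variance 2 genes passed. Leaving out knockout library E gave 837 genes, and leaving out any other library 43 to 158. The other cells were also a different mix in each genotype: cluster 2, for example, held 2055 knockout and 661 wild-type cells.

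Foxp3 and Klf2 were lower in knockout cells outside the cluster too. Foxp3 differed by -0.59 in cluster 1 and -0.92 in the other cells (difference 0.33, SE 0.07, adjusted p = 0.023, limma), and Klf2 by -0.91 and -1.24 (difference 0.33, SE 0.10, adjusted p = 0.11). Il9 differed by 1.13 in cluster 1 and 1.37 in the other cells, and that difference did not pass (-0.24, SE 0.09, adjusted p = 0.20). Il13 rose by 2.58 in cluster 1 against 4.30 in the other cells (difference -1.73, SE 0.23, adjusted p = 0.0026).

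Ebi3 had the reverse order, with 1.20 in cluster 1 against 0.73 in the other cells (difference 0.46, SE 0.06, adjusted p = 0.0017, limma). Egr3 differed by 0.08 in cluster 1, where it did not pass, and by -0.64 in the other cells (difference 0.73, SE 0.07, adjusted p = 0.00098), and Egr1 by 0.08 and -0.50 (difference 0.57, adjusted p = 0.022). The Egr1 call was lost without wild-type library A (adjusted p = 0.058), B (0.13) or C (0.12) and in cells with Foxp3 at 0 (0.071). Tmem176b differed by 0.09 and -0.64 (difference 0.72, adjusted p = 0.00071) and its neighbour Tmem176a by 0.49 and -0.14. Bnip3, a mitophagy receptor, Mt1, a metallothionein, and Lgals3, galectin-3, had the largest lower effects in cluster 1 after Il13, but each of these 3 calls was lost when any wild-type library, or knockout library D or F, was left out.

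**Figure D5:**
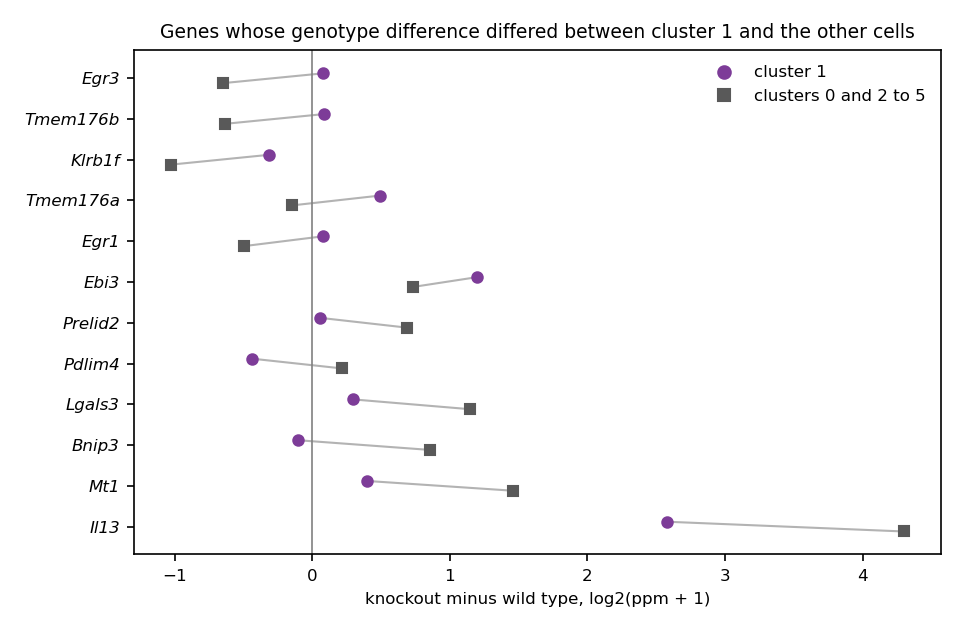
For the 12 genes with the largest differences that passed the test, the horizontal axis gives knockout minus wild type in log2(ppm + 1), with circles for cluster 1 and squares for clusters 0 and 2 to 5. Il13 shows the widest gap, 2.58 against 4.30, and Egr3, Egr1 and Tmem176b lie near 0 in cluster 1 and left of 0 in the other cells.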

How the data were processed

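The data were 10x Genomics 3' single-cell RNA libraries, 3 per genotype. Per the submitters' processing notes, the software was Seurat 3.0.0 after Cell Ranger 3.0.2, with build mm10 and settings not stated there. The deposited expression values are treated as a score: per the file headers they come from sctransform, which brings every cell to a common depth, so a count model was not applied. Depth was taken from the raw UMI count per cell, and RNA quality from the percent of mitochondrial UMIs, both in the authors' table. Cells had been filtered before deposit (at least 15006 UMIs). Libraries are named by index and genotype only and are called A to F here. Doublets were not treated, since raw counts per gene were not used.

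Corrected counts of the deposited cluster were summed per library and scaled to ppm. Testing used limma 3.58.1 in R 4.3.3 (TMM factors from edgeR 4.0.16) for genes averaging 5 ppm or more, on log2(ppm + 1) with limma's trend option, with two-sided p-values adjusted by the Benjamini-Hochberg method to a threshold of 0.05. Fold changes on this scale understate those of low genes. Members passing the 5 ppm filter on their mean are those counted. Cluster 6 (24 cells) was left out. Cluster sizes are not compared, since defining genes differ between genotypes. Correlations between libraries across genes were 0.994 to 0.999, and all 6 were kept as separate samples. The fit of knockout against wild type in cluster 1 was run on simulated data with independent noise for each gene. The fit of the difference between cluster 1 and the other cells was not simulated.

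The members, gene lists and tests were chosen with earlier results of these data known. Named genes are Cblb, Il9, the 6 markers, the 12 largest rises and falls whose groups do not overlap, the 15 highest and 10 lowest genes of the cluster, the 6 largest differences in each direction of the test between cluster 1 and the other cells, and up to 4 called members per list, leaving out unnamed (Gm, Rik), Y-linked, mitochondrial, ribosomal protein and receptor segment genes. Other members named beside their counts were chosen after their values were seen.
A few items are not reported here.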

Additional observations from a re-analysis of the deposited data

Results flagged for a closer look

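In 12 genes, the 6 largest in each direction among those that passed, the knockout effect differed between cluster 1 and clusters 0 and 2 to 5 of the same libraries by a test of the difference itself (limma on the 6 within-library differences). Lower effects in cluster 1 were found for Il13 (-1.73), Mt1 (-1.06), Bnip3 (-0.96), Lgals3 (-0.85), Pdlim4 (-0.66) and Prelid2 (-0.63). Higher effects were found for Egr3 (0.73), Tmem176b (0.72), Klrb1f (0.71), Tmem176a (0.64), Egr1 (0.57) and Ebi3 (0.46). None of the 12 passed without a trend in the prior variance, where the adjusted p of Ebi3, Egr3, Tmem176b and Klrb1f was 0.057. Of the other settings in which they could be fitted, Ebi3, Egr3, Tmem176a, Tmem176b, Il13 and Klrb1f passed in all. Counting every setting fitted, Prelid2 passed in 15 of 17, Pdlim4 in 13 of 15, Egr1 in 13 of 18, Lgals3 in 11 of 18, Bnip3 in 10 of 17 and Mt1 in 9 of 17. With the other 5 clusters weighted equally, chosen after seeing the data, all 12 passed and kept their direction. With cluster 0 alone as the other cells, also chosen after seeing the data, Bnip3 (adjusted p = 0.059) and Mt1 (adjusted p = 0.054) did not pass. Whether the mix of clusters in the other cells moves these differences was tested only by those weightings.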

How the results depend on the processing

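Within cluster 1 the number of changed genes was 1580 and lay between 668 and 2058 when 1 library was left out (668 without wild-type library C, 2058 without knockout library E). Under other scalings, pseudocounts, filters, cell subsets or a mean of log values over cells it was 1119 to 1933. For the difference between cluster 1 and the other cells, 261 genes became 43 (without wild-type library C) to 837 (without knockout library E), 2 without a trend in the prior variance, where 1211 had an unadjusted p under 0.05, and 165 with the other 5 clusters weighted equally, of which 115 were among the 261. No called value of a named gene changed sign under any setting run. Of 69 values of the 12 named between-cluster differences with a library left out, 49 kept the call and 20 (6 genes) lost it. No paired analysis was possible because the columns of the table carry no replicate number. With 3 libraries per genotype the shares of cells cannot go below an exact p of 0.1, and low genes such as Ccl22 in wild-type cells rest on few counts.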
